A study of Malus domestica with 4 samples.

Results

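The genes described here were nearly silent in apple cortex before low oxygen was applied and were expressed after 24 days in atmosphere (DIA) at both oxygen levels. They were selected on their levels: a gene had to lie under 1 CPM (counts of a gene per 1000000 counts of the sample) in T0 and at 10 CPM or more in both 0.4ox and 0.8ox. Of the 63514 genes in the tables, 48 met this rule. In all, 33998 genes lay under 1 CPM in T0, and 12592 genes reached 10 CPM in both low oxygen conditions. A further 48 genes under 1 CPM in T0 reached 10 CPM in 0.4ox only, and 14 in 0.8ox only.

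RNA was sequenced from the cortex, the flesh under the peel, of Granny Smith apples kept at 1°C. T0 was normoxic fruit after 3 days of acclimation to the cold, 0.4ox and 0.8ox were fruit held for 24 days at 0.4 and 0.8 kPa oxygen, and the shifted sample was fruit moved from 0.4 to 0.8 kPa, for which the labels give no day. The submitters' design gives 3 replicates for each of the 4 conditions, while the study's methods describe the libraries of T0, 0.4ox and 0.8ox only. Cuffdiff, as the authors ran it, merged each condition into 1 estimated count with a variance, so the spread between fruit enters only through that variance. Every comparison against T0 also spans 24 days of cold storage, and without a normoxic sample of that age among these libraries the effect of oxygen and that of storage cannot be told apart. In whole tissue, more transcript per cell and more cells of a type cannot be told apart either.

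In plants the best known response to oxygen shortage is the switch to fermentation, in which pyruvate decarboxylase and alcohol dehydrogenase regenerate NAD+ while respiration is limited. In Arabidopsis, ethylene response factors of group VII are degraded when oxygen is present, through oxidation of an N-terminal cysteine, and they activate hypoxia genes when oxygen is scarce. One of their targets there is HRA1 (AT3G10040), a Trihelix protein that in turn restrains a group VII factor. Fruit tissue in cold storage meets this programme together with ripening, which ethylene drives in apple.

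The estimated counts summed to 9553180 in T0, 5445598 in 0.4ox and 6471124 in 0.8ox. The study lists far more reads for the first T0 replicate than for any other library. What part this depth has in the low T0 values was not tested. A separate table holds the shifted sample beside 0.8ox, with totals of 5363827 for 0.8ox and 4865029 for the shifted sample. Low values in that table lie on the steps of whole reads, scaled and averaged over libraries, whereas the other 3 tables also hold fractions of a read shared between genes, and CPM values are therefore not comparable between the 2 kinds of table. As a check of the tissue, the 14 ripening markers summed to 131 CPM in T0, 2628 CPM in 0.4ox and 6590 CPM in 0.8ox, and 9 of them were at 1 CPM or more in T0. Most of that sum was ACC oxidase (MDP0000195885), which makes ethylene, at 107, 2610 and 6460 CPM. Polygalacturonase (MDP0000326734, a pectin-degrading enzyme) stood at 2.23, 4.38 and 96.1 CPM, and ACC synthase (MDP0000413933, which makes the precursor of ethylene) at 1.11, 1.09 and 1.28 CPM. Other members of the list had their highest level in T0, such as MDP0000138500 at 6.31, 0.219 and 0.537 CPM. The 16 genes described as parts of photosystems, light harvesting or RuBisCO summed to 1406 CPM in T0, 81.4 CPM in 0.4ox and 240 CPM in 0.8ox, with 11 of them at 1 CPM or more in T0. The 14 peel markers summed to 21.2, 8.81 and 40.6 CPM, the 13 seed markers to 19.7, 6.02 and 16.3 CPM, and the 9 genes of pathogen or wound responses to 25.8, 235 and 955 CPM, in the same order. Of these lists, 1 ripening gene, 1 photosystem gene, 3 peel genes and 4 seed genes had no count in T0. Apart from the 3 ripening genes given by identifier, the markers come from descriptions in a part of the study's gene table that is sorted by the ratio of 0.8ox to 0.4ox, so their difference between those 2 conditions is partly set by that order. Of the 3 photosystem and 4 pathogen or wound genes tested between these conditions, 3 of each passed as higher in 0.8ox and none as lower. The sums of these lists therefore cannot stand for the whole gene families. Over all its genes, the study reports light harvesting and defense response as over-represented among those more expressed at the lower oxygen level. The part these tissue markers play in the results on the 48 genes was not tested.

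Only 3 of the 48 genes carry an annotation in the sources used here. All 3 were named by the study's list of transcription factors, so that they are regulators follows from that source. MDP0000429824 is a Trihelix gene paired by the study with HRA1 of Arabidopsis, and MDP0000253285 and MDP0000123816 are AUX/IAA genes paired with AT1G04250, which encodes IAA17, a repressor of auxin response. The other 45 genes are known here by identifier only. None of the 48 is in the part of the gene table used here (1998 genes) or in the RT-qPCR list.

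The counts of many of these genes rest on reads that also fit other genes. Dividing the whole-read count of 0.8ox by its estimated count gave the share of unshared reads, called own reads here, which reached at most 119% among genes with 200 or more counts because the tables are scaled differently. By this measure 20 of the 48 genes stood at 100% or more and 6 between 50% and 100%, so that 26 stood at 50% or more. As a gene without shared reads lies near the upper end and not at 100%, the lowest of the 26, MDP0000769493 (53.4%) and MDP0000211356 (56.1%), still share a large part of their reads. A further 13 stood between 10% and 50%, and 9 were under 10%. The 22 genes under 50% are 45.8% of the set, beside 29.4% of the 13446 genes at 10 CPM or more in 0.8ox. For those 22 the level could not be separated from that of the genes that share their reads.

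In T0 the 48 genes ranged from 0.0127 to 0.924 CPM with a median of 0.347 CPM, which is 0.121 to 8.82 estimated counts. In 0.4ox they ranged from 11.2 to 155 CPM with a median of 32.3 CPM, and in 0.8ox from 10.4 to 125 CPM with a median of 21.3 CPM. Their summed level was 17.6 CPM in T0, 2223 CPM in 0.4ox and 1544 CPM in 0.8ox. These values chose the genes and are a description, with no test.

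In T0, 20 of the 48 genes were at 3 estimated counts or fewer, and 8 of them were under 1 count, so no fold against T0 is given for the 20. For the other 28 the log2 ratio 0.4ox/T0 ran from 3.85 to 8.87 with a median of 6.21, and the log2 ratio 0.8ox/T0 from 3.67 to 8.35 with a median of 5.57. The lowest ratio at 0.4 kPa belonged to MDP0000181572 (SE 0.54) and the highest to MDP0000696624 (SE 0.82). The wide errors come from the few reads in T0, while the variance of the counts corresponds to 10.7% to 14.8% of the count in 0.4ox and 8.19% to 12.6% in 0.8ox.

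**Figure D1:**
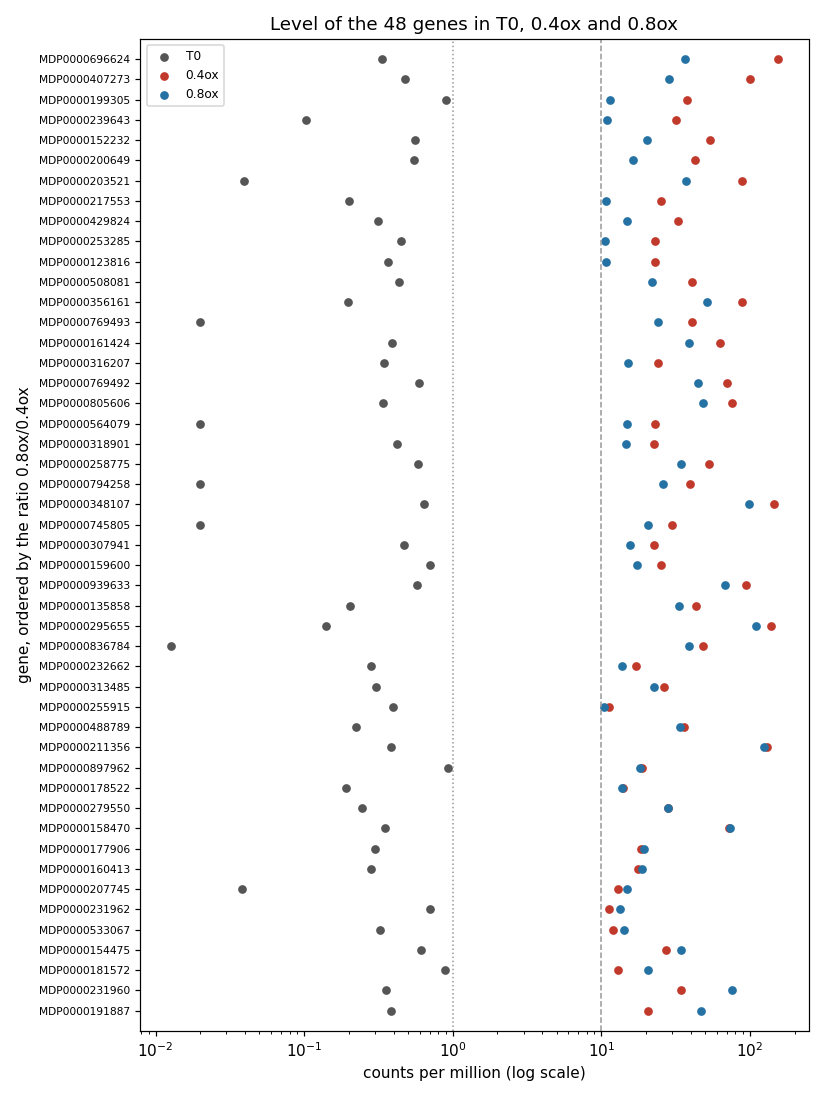
CPM on a log scale for each of the 48 genes in T0 (grey), 0.4ox (red) and 0.8ox (blue), with the selection limits of 1 CPM (dotted) and 10 CPM (dashed), ordered by the ratio 0.8ox/0.4ox. The T0 points lie between 0.0127 and 0.924 CPM, and from the top of the plot the red points move from right of the blue ones to left of them.

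A group of 4 members, MDP0000564079, MDP0000745805, MDP0000769493 and MDP0000794258, had the same T0 count of 0.191, a value that 14 genes of the tables carry. Their own-read measures were 13.8%, 0%, 53.4% and 24.1%, and their log2 ratios 0.8ox/0.4ox were below 0, none past the threshold.

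The limits of the selection cut through a continuous range. The genes just inside the T0 limit were MDP0000897962 (0.924 CPM), MDP0000199305 (0.905 CPM) and MDP0000181572 (0.892 CPM), and those just outside were MDP0000136760 (1.06 CPM), MDP0000312569 (1.08 CPM) and MDP0000782882 (1.14 CPM). At 0.4 kPa the genes just inside were MDP0000255915 (11.2 CPM), MDP0000231962 (11.3 CPM) and MDP0000533067 (12.0 CPM), and just outside were MDP0000931048 (9.78 CPM), MDP0000183671 (9.42 CPM) and MDP0000656720 (6.89 CPM). At 0.8 kPa the genes just inside were MDP0000255915 (10.4 CPM), MDP0000253285 (10.6 CPM) and MDP0000123816 (10.7 CPM), and just outside were MDP0000212713 (9.9985 CPM), MDP0000171121 (9.79 CPM) and MDP0000325554 (9.20 CPM). One of those left out at the T0 limit, MDP0000312569, reached 213 CPM in 0.4ox and 105 CPM in 0.8ox.

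The first comparison asked how far the 2 oxygen levels differed for genes that were on at both. All 48 were tested. At an adjusted p under 0.001, 11 genes were lower in 0.8ox than in 0.4ox and 2 were higher, while 35 did not pass. Among the 26934 genes tested in this table, 2.42% were lower in 0.8ox and 1.54% higher. The selection used both counts and required 10 CPM in each, which bounds the ratios, so nothing is read from the members' count against this background. The median log2 ratio of the 48 genes was −0.53, beside 0.01 over all genes tested, with 37 ratios below 0 and 11 above, which the same selection shaped, so these are a description too. The test set each log2 ratio against its SE from the deposited variances (two-sided, normal), and p values carry a Benjamini-Hochberg adjustment across the whole table.

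The gene with the lowest ratio was MDP0000696624, at 0.332 CPM in T0, 155 CPM in 0.4ox and 36.7 CPM in 0.8ox. It was 4.22-fold lower in 0.8ox than in 0.4ox, at −2.08 on the log2 scale (SE 0.21, adjusted p = 2.9e-21). Nearly all of its reads were its own, at 116% on the measure above. MDP0000407273 stood at 0.475, 100.4 and 28.7 CPM in T0, 0.4ox and 0.8ox, lower in 0.8ox at a log2 ratio of −1.80 (SE 0.21, adjusted p = 5.3e-15). MDP0000203521 stood at 0.0393, 88.0 and 36.9 CPM, with a log2 ratio of −1.25 (SE 0.21, adjusted p = 9e-08). These 3 are the members lower in 0.8ox past the threshold with own reads at 50% or more.

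The other 8 genes lower in 0.8ox had under 50% reads of their own. MDP0000199305 stood at 37.5 CPM in 0.4ox and 11.5 CPM in 0.8ox, MDP0000239643 at 31.9 and 10.9 CPM, and MDP0000152232 at 54.3 and 20.4 CPM. Their log2 ratios were −1.71 (SE 0.24), −1.55 (SE 0.25) and −1.41 (SE 0.22). MDP0000200649 (−1.40, SE 0.23) and MDP0000217553 (−1.23, SE 0.25) had no whole read in 0.8ox, and without scaling MDP0000217553 did not pass (−0.98, adjusted p = 0.0019). Their difference between the oxygen levels therefore belongs to all genes that share these reads and not to 1 gene. The remaining 3 are the annotated regulators.

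Both genes that were higher in 0.8ox had own reads of 114%. MDP0000191887 stood at 0.386 CPM in T0, 20.6 CPM in 0.4ox and 47.2 CPM in 0.8ox, a log2 ratio of 1.19 (SE 0.23, adjusted p = 7.9e-06). MDP0000231960 stood at 0.358, 34.5 and 75.7 CPM, a log2 ratio of 1.13 (SE 0.21, adjusted p = 3.1e-06). These 2 genes thus had the opposite order of oxygen levels to the 11 above. Of the ripening genes, polygalacturonase was higher in 0.8ox too (log2 ratio 4.46, SE 0.33). The study had already singled out this difference in the same data, so it is a description only. ACC oxidase had a log2 ratio of 1.31 that did not pass (SE 0.37, adjusted p = 0.0077).

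Among the 35 genes that did not pass, the log2 ratios ran from −0.89 to 0.67, 26 of them below 0. MDP0000211356 stood at 0.383 CPM in T0, 130 CPM in 0.4ox and 125 CPM in 0.8ox, a log2 ratio of −0.06 (SE 0.19). MDP0000158470, with 20.7% reads of its own, stood at 0.350, 72.2 and 74.0 CPM, a log2 ratio of 0.04 (SE 0.20). The levels of these 2 genes at 0.4 and 0.8 kPa lay within 1 SE of each other. MDP0000295655 stood at 140 CPM in 0.4ox and 111 CPM in 0.8ox (log2 ratio −0.34, SE 0.19), MDP0000348107 at 145 and 98.7 CPM (−0.55, SE 0.20) and MDP0000939633 at 94.0 and 68.0 CPM (−0.47, SE 0.20). MDP0000356161 stood at 88.0 and 51.4 CPM (−0.78, SE 0.21, adjusted p = 0.0034). MDP0000805606, with 31.4% reads of its own, stood at 75.4 and 48.1 CPM (−0.65, SE 0.20). At the other end MDP0000181572 stood at 12.9 CPM in 0.4ox and 20.5 CPM in 0.8ox (0.67, SE 0.26). The SE of a member's ratio had a median of 0.23, and the smallest log2 ratio of a member that passed was 1.10 in size. In the 26 genes at 50% or more own reads the median log2 ratio was −0.32, with 5 genes past the threshold, 3 lower and 2 higher in 0.8ox.

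**Figure D2:**
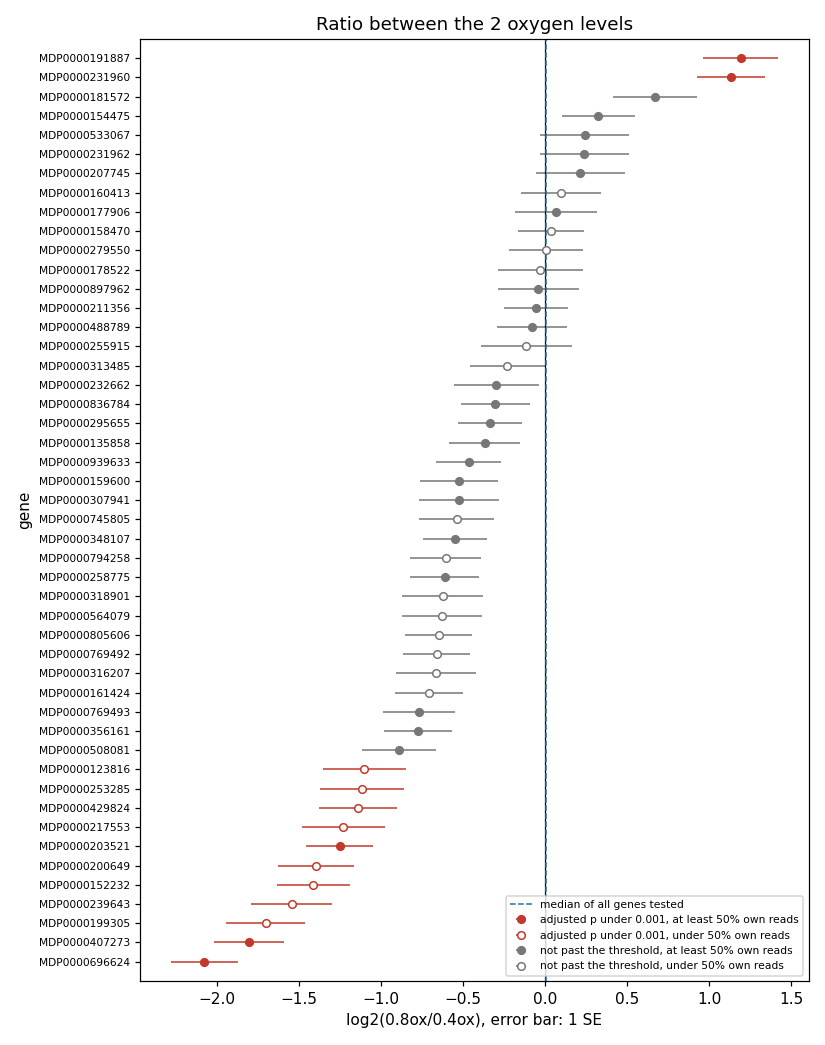
Log2 ratio 0.8ox/0.4ox of the 48 genes with 1 SE, in order of the ratio. Red marks the 13 genes past an adjusted p of 0.001, open circles mark genes under 50% own reads, and the dashed line is the median of all genes tested (0.01). Of the 11 red points left of 0, 8 are open.

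The second comparison asked whether these genes were still expressed after fruit had been moved from 0.4 to 0.8 kPa, and how they then compared with fruit held at 0.8 kPa for 24 days. The 0.8ox sample was taken before the time of the shift, so the shifted fruit had been stored longer, and oxygen history and storage time cannot be told apart in this comparison. The shifted sample was not used in the selection, although 0.8ox was. No ratio of shifted to 0.4ox was made, so the change from before the shift was not measured. In the table of whole reads, 29 of the 48 genes reached 10 CPM in 0.8ox, and all 29 also reached 10 CPM in the shifted sample. The share of all genes that did so was not computed, so nothing particular to these genes is read from this count. Over these 29 genes the levels ran from 15.5 to 143 CPM in 0.8ox, with a median of 30.8 CPM, and from 11.6 to 148 CPM in the shifted sample, with the same median of 30.8 CPM. The T0 levels of the same genes, under 1 CPM, stand in the other tables and are given side by side only.

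In all, 40 of the 48 genes could be tested between shifted and 0.8ox, and the other 8 had too few whole reads. At an adjusted p under 0.001, 5 genes were higher in the shifted sample and 1 was lower. Of the 20669 genes tested, 1.54% were higher and 0.416% lower. The selection required 10 CPM in 0.8ox, which is part of this ratio, so nothing is read from the members' counts against this background. The other 34 did not pass. The median log2 ratio of the 40 genes was 0.15, the same as over all genes tested (0.15), with 22 ratios above 0 and 18 below. Setting the median over all genes to 0, using the counts without scaling, or applying TMM factors each left 2 genes higher and 2 lower, and moved the calls over all genes from 319 higher and 86 lower to 234 and 129, 237 and 123, and 228 and 148. The ripening gene polygalacturonase stood at 137 CPM in 0.8ox and 3.25 CPM in the shifted sample (log2 ratio −5.40, SE 0.40, adjusted p = 1.1e-38). It was the only 1 to pass among the 4 ripening markers tested here. ACC oxidase (−1.19, SE 0.33, adjusted p = 0.011) and MDP0000294444 (−1.06, SE 0.84) were lower without passing, and MDP0000274454 was higher without passing (0.56, SE 0.71). The 16 photosystem and RuBisCO genes summed to 308 and 124 CPM, and 1 of the 3 tested passed, as lower. Polygalacturonase was known as higher in 0.8ox than in 0.4ox, and the 16 genes come from an order by that ratio. As 0.8ox is shared here, a lower level in the shifted sample than in 0.8ox is favoured by that choice. What part these ripening and green tissue markers have in the ratios of the 40 genes was not tested.

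MDP0000239643 had the highest ratio, with 5.84 CPM in 0.8ox and 21.9 CPM in the shifted sample, 3.75-fold higher (log2 ratio 1.91, SE 0.33, adjusted p = 6.5e-07). MDP0000232662 stood at 19.8 CPM in 0.8ox and 52.0 CPM in the shifted sample (log2 ratio 1.39, SE 0.25, adjusted p = 4e-06). Both passed under every scaling tried, with log2 ratios of 1.76 and 1.24 when the median of all genes was set to 0. MDP0000207745 stood at 21.3 and 48.7 CPM (log2 ratio 1.19, SE 0.26, adjusted p = 3.6e-04), MDP0000356161 at 70.7 and 148 CPM (1.06, SE 0.22, adjusted p = 1.5e-04) and MDP0000696624 at 51.2 and 106 CPM (1.05, SE 0.23, adjusted p = 2.0e-04). With the median of all genes at 0 these 3 kept log2 ratios of 1.04, 0.91 and 0.90 but no longer passed, with adjusted p values of 0.0033, 0.0022 and 0.0027.

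MDP0000836784 was lower in the shifted sample. It stood at 53.6 CPM in 0.8ox and 22.8 CPM in the shifted sample, 2.35-fold lower (log2 ratio −1.23, SE 0.25, adjusted p = 5.4e-05), and passed under every scaling tried. In T0 it had 0.121 estimated counts, the lowest of the 48 and the most frequent T0 value above 0 (983 genes), and at 24 DIA it stood at 48.02 CPM in 0.4ox and 38.9 CPM in 0.8ox (log2 ratio −0.30, SE 0.21). MDP0000154475 came next, at 45.4 CPM in 0.8ox and 21.7 CPM in the shifted sample (log2 ratio −1.07, SE 0.25, adjusted p = 0.0011). With the median of all genes at 0 it passed, at a log2 ratio of −1.21 (adjusted p = 1.1e-04). MDP0000533067 stood at 20.3 and 11.6 CPM (−0.81, SE 0.29), MDP0000231960 at 104 and 70.4 CPM (−0.56, SE 0.22) and MDP0000407273 at 41.3 and 28.9 CPM (−0.51, SE 0.25), none of them past the threshold.

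**Figure D3:**
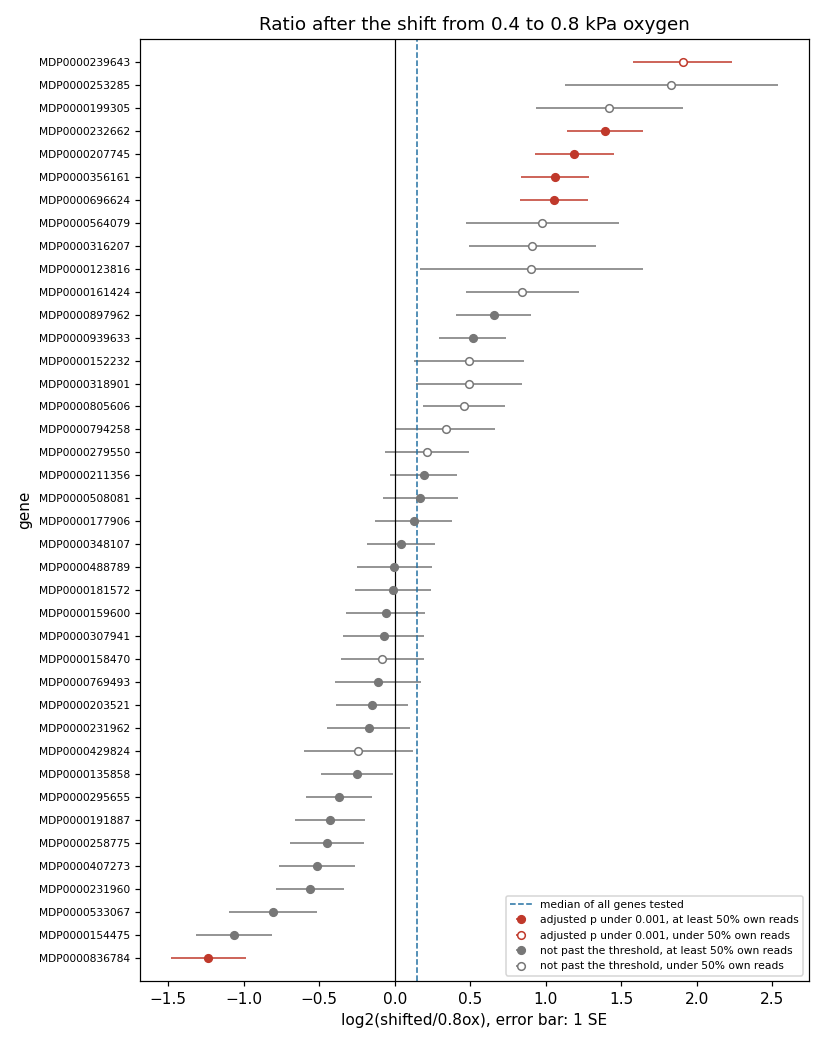
Log2 ratio shifted/0.8ox of the 40 genes that could be tested, with 1 SE. Red marks the 6 genes past an adjusted p of 0.001, open circles mark genes under 50% own reads, and the dashed line is the median of all genes tested (0.15), around which the grey points spread.

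Only 2 of the 48 genes passed in both comparisons, which share the 0.8ox fruit. MDP0000696624 was lower in 0.8ox than in 0.4ox (log2 ratio −2.08) and higher in the shifted sample than in 0.8ox (1.05). MDP0000239643 had log2 ratios of −1.55 and 1.91 in the same comparisons. Its own reads stood at 44.2%, so the first ratio belongs to all genes that share its reads. The second rests on whole reads only, so the 2 ratios do not measure the same reads. MDP0000407273, whose log2 ratio 0.8ox/0.4ox was −1.80, had a log2 ratio shifted/0.8ox of −0.51 that did not pass, and for MDP0000203521 the 2 values were −1.25 and −0.15 (SE 0.24). A low 0.8ox value lowers the first ratio and raises the second, so opposite signs in the pair are not independent.

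The 3 annotated regulators were all lower in 0.8ox than in 0.4ox. The study listed them as transcription factors from this same comparison, so its choice is not independent evidence of the direction. The Trihelix gene MDP0000429824, paired with HRA1, stood at 0.314 CPM in T0, 32.7 CPM in 0.4ox and 14.8 CPM in 0.8ox, 2.21-fold lower at the higher oxygen level (log2 ratio −1.14, SE 0.24, adjusted p = 5.3e-05). After the shift it stood at 6.29 CPM against 7.43 CPM in 0.8ox of the same table (log2 ratio −0.24, SE 0.36, adjusted p = 0.84). Its own reads stood at 41.6%. Counts without any scaling left it at a log2 ratio 0.8ox/0.4ox of −0.89, with an adjusted p of 0.0028.

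AUX/IAA proteins repress auxin-responsive genes until auxin triggers their degradation. MDP0000253285 stood at 0.451 CPM in T0, 23.1 CPM in 0.4ox and 10.6 CPM in 0.8ox (log2 ratio 0.8ox/0.4ox −1.12, SE 0.26, adjusted p = 3.8e-04). MDP0000123816 stood at 0.364, 22.9 and 10.7 CPM (−1.10, SE 0.25, adjusted p = 4.4e-04). The study pairs both with 1 RefSeq transcript, of the gene LOC103410576, to which it also pairs MDP0000223496, and their own reads stood at 9.69% and 10.4%, so that the pair is not 2 separate measurements. Without scaling their log2 ratios were −0.87 and −0.85, with adjusted p values of 0.0088 and 0.0099.

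MDP0000223496 itself fell outside the selection, at 3.05 CPM in T0, 75.2 CPM in 0.4ox and 9.04 CPM in 0.8ox. It was counted from its own reads (118%) and was lower in 0.8ox than in 0.4ox (log2 ratio −3.06, SE 0.25, adjusted p = 2.3e-31). Its level was higher in the shifted sample, at 57.4 CPM, than in 0.8ox of the same table, at 12.8 CPM (log2 ratio shifted/0.8ox 2.16, SE 0.26, adjusted p = 5.7e-14). For the pair of members, the whole reads gave 1.25 and 4.43 CPM for MDP0000253285 in 0.8ox and the shifted sample (log2 ratio 1.83, SE 0.71, adjusted p = 0.12), and 1.34 and 2.51 CPM for MDP0000123816 (0.90, SE 0.74, adjusted p = 0.63). Another AUX/IAA gene, MDP0000270789, reached the limit of 10 CPM in 0.4ox only, at 0.129, 26.3 and 6.92 CPM in T0, 0.4ox and 0.8ox. The remaining 2 AUX/IAA genes of that table, MDP0000250876 and MDP0000284467, stood at 97.0 and 48.1 CPM in T0 and were higher in 0.8ox than in 0.4ox, with log2 ratios of 1.29 (SE 0.20) and 1.47 (SE 0.23). Their own reads were 24.1% and 1.08%, so neither level can be given to 1 gene. Since that table lists regulators called between these 2 conditions in the same data, the passing of its genes between 0.8ox and 0.4ox is a description only. After the shift, 1 of its 5 AUX/IAA genes tested was higher than in 0.8ox and none lower.

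**Figure D4:**
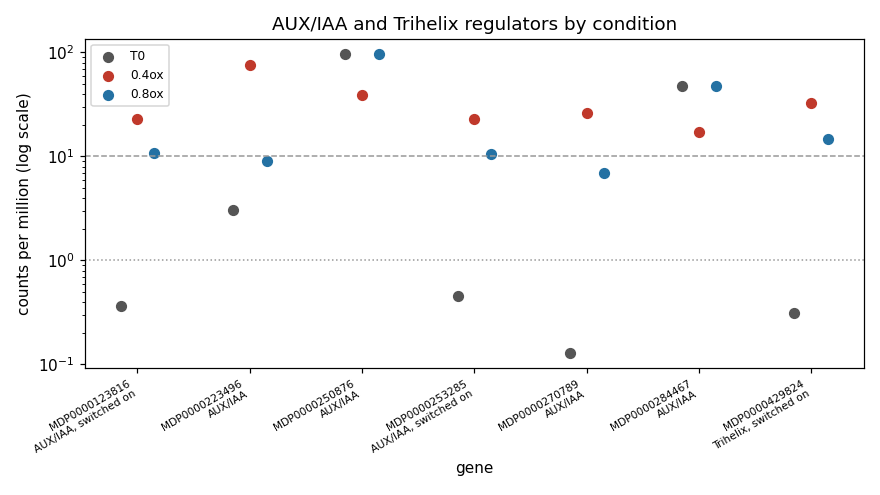
CPM on a log scale in T0 (grey), 0.4ox (red) and 0.8ox (blue) for the 6 AUX/IAA genes of the transcription factor table and the Trihelix gene, with the selection limits of 1 and 10 CPM. In the 3 genes of the set the points run from under 0.5 CPM in T0 to 22.9 to 32.7 CPM in 0.4ox and 10.6 to 14.8 CPM in 0.8ox.

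None of the known hypoxia genes that the study followed by RT-qPCR was among the 48, since every one of the 5 fermentation genes, the 4 genes of sugar and starch entry and the 6 group VII factors stood at 1 CPM or more in T0. Pyruvate decarboxylase (MDP0000800945) had 89.5 CPM in T0, 8762 CPM in 0.4ox and 5697 CPM in 0.8ox, and its log2 ratios were −0.62 (SE 0.49) for 0.8ox/0.4ox and −0.06 (SE 0.32) for shifted/0.8ox. None of the 5 fermentation genes passed between 0.8ox and 0.4ox, nor did any of the 4 that could be tested after the shift. The ratios of alcohol dehydrogenase (MDP0000594290, own reads 0.222%) and alanine aminotransferase (MDP0000319263, own reads 25.0%) cannot be given to 1 gene. By RT-qPCR the study found alanine aminotransferase abundant at the lower oxygen level and near basal at the higher. Its sequencing results list several alcohol dehydrogenase genes as more expressed at the lower level. Not passing therefore does not show equal expression at both oxygen levels. Among the 4 genes of sugar and starch entry, MDP0000131308 was lower in 0.8ox (113 against 39.8 CPM, log2 ratio −1.51, SE 0.20, adjusted p = 2.8e-11). The study's primer list names MDP0000131308 phosphofructokinase, while its results text calls it a putative alpha-amylase-like gene. Of the 6 group VII factors, MDP0000288465 and MDP0000848905 were lower in 0.8ox, with log2 ratios of −1.17 (SE 0.20) and −0.88 (SE 0.20), and the other 4 did not pass. MDP0000848905 had no whole read in 0.8ox, so its value belongs to all genes that share its reads. After the shift none of the 3 sugar and starch genes or the 5 group VII factors tested passed against 0.8ox.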

How the data were processed

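Cortex RNA of Granny Smith apples was sequenced on an Illumina instrument. According to the study's methods and the submitters' processing notes, ERNE trimmed the reads, TopHat2 with Bowtie2 placed them on the apple genome, version 1.0, and Cuffdiff estimated the counts. The methods name an option that drops reads with several locations, yet 3 of the 4 tables hold fractions of a read. Each deposited value is an estimated count of a gene, 1 per condition and table, which the authors' Cuffdiff run made from 3 libraries (for the shifted sample, per the submitters' design only), each with the variance of the count (squared counts). Counts were divided by their column sum to CPM. A gene was tested in a table when at least 1 condition had 10 counts and neither had 0. The log2 ratio was divided by its SE, from the undivided variances, for a two-sided normal p value. Benjamini-Hochberg adjustment ran across the whole table, with a threshold of 0.001. The variance is modelled over genes of similar count, so p values do not measure the spread of a single gene between fruit. The step was tested on simulated counts.

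The 48 genes and the lists were chosen with earlier results of these data known. Named genes were the 10 with the highest mean CPM, the 5 lowest and 5 highest ratios in each comparison (after the shift, among genes at 10 CPM or more in either condition), those in the study's lists of regulators or primers, and the 3 nearest each limit on either side. CPM is not corrected for gene length, so levels are compared within a gene only. Coordinates were not used, as the reference table names genes of another assembly. It gave a symbol for 3 of the 48 genes through the RefSeq transcripts that the study pairs with them. Python 3.11.15, pandas 2.3.3, scipy 1.17.1, R 4.3.3 and edgeR 4.0.16 were used.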

Additional observations from a re-analysis of the deposited data

How the results depend on the processing

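With the variance divided by the 3 libraries, 29 of the 48 genes passed between 0.8ox and 0.4ox (26 lower, 3 higher) in place of 13, and 14 passed after the shift in place of 6. An adjusted p under 0.05 gave 20 genes between 0.8ox and 0.4ox, and the 26 genes at 50% or more own reads gave 5. The unscaled counts gave 9, with 7 lower and 2 higher in 0.8ox. The number of genes in the set was 86 with a T0 limit of 2 CPM, 95 with 5 CPM as the lower limit for 0.4ox and 0.8ox, 26 with 20 CPM and 26 with own reads at 50% or more. Over the alternatives tried, no gene that passed in either fit changed direction. TMM factors, median centring, no minimum count, a minimum of 50 counts and the exact test of edgeR each gave 13 genes between 0.8ox and 0.4ox, and after the shift from 4 to 7. No paired analysis was possible because the labels give 1 sample per condition, and for the same reason no replicate was left out.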
